A study of Mus musculus with 6 samples.

Results

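The 10 genes for tissue-type regulators of alternative splicing (Esrp1, Esrp2, Rbfox2, Mbnl1, Mbnl2, Mbnl3, Ptbp1, Ptbp2, Celf1 and Qk) were examined in mouse embryonic stem cells (mESC) with 1 disrupted allele of Srrm2, the gene for a large splicing factor of nuclear speckles. They were picked by name, with earlier results of these data known, and are 10 of the 42450 genes in the deposited table of estimated counts. All 10 passed the filter on low counts, as did 18905 genes in all. The series holds 6 total RNA libraries from male E14tg2a.4 cells, 3 from the parental wild-type line (WT) and 3 from a line with a heterozygous gene-trap truncation of Srrm2 (Srrm2+/-). Both lines were grown on gelatin with LIF, and in serum-free ESGRO medium with LIF before collection. The Srrm2+/- cells are a single gene-trap line (CG0630), and the trap lies in the first exon of 1 allele. Per the study's methods, the replicates of each line were batches frozen separately at different passages, and the WT batches were at later passages than the Srrm2+/- batches, so passage and genotype cannot be told apart.

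Tissue-type splicing regulators are RNA-binding proteins that recognise short motifs in and near alternative exons and promote or block the use of those exons by the spliceosome. ESRP1 and ESRP2 favour the isoforms of epithelial cells, PTBP1 holds back many neuronal and muscle exons, PTBP2 takes over part of that work in developing neurons, and MBNL proteins favour isoforms of differentiated tissues, often against CELF1. RBFOX2 binds GCAUG elements, and the effect on an exon depends on the side of the exon on which it binds. QK is a STAR-domain protein known for its roles in glia, muscle and the epithelial to mesenchymal transition. The counts analysed here are sums per gene, so isoforms and exon use were not measured.

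Library totals ranged from 54151532 to 69933465 estimated counts, and Pearson correlations of log2 CPM, the counts scaled by library size, were 0.985 to 0.989 within the groups and 0.971 to 0.975 between them. The mESC markers Pou5f1, Sox2, Nanog, Zfp42, Esrrb and Klf4 were abundant in every library, with a summed level of 3023 to 3125 CPM in WT and 2448 to 2561 in Srrm2+/-, and 5 of the 6 were lower in Srrm2+/- (edgeR quasi-likelihood test, Benjamini-Hochberg adjusted p under 0.05, the rule for every call named here). Srrm2 itself measured 91.2, 98.3 and 97.7 CPM in WT and 62.2, 56.2 and 59.6 in Srrm2+/-, a fall to 62.0% of WT (log2 fold change -0.69, SE 0.050, edgeR adjusted p = 2.38e-05). Across all genes tested, 4781 were called (25.3%), of which 2573 were higher (13.6%) and 2208 lower (11.7%).

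Of the 10 regulators, 5 rose (Esrp1, Esrp2, Ptbp1, Ptbp2 and Mbnl2), 2 fell (Mbnl1 and Qk) and 3 did not pass the test (Rbfox2, Celf1 and Mbnl3). The changes were small. The called differences lay between 1.13-fold (Mbnl2) and 1.35-fold (Esrp1), and the largest log2 fold change, 0.44, was below 1, a size that 6.1% of all genes reached with a call. The median log2 fold change of the 10 genes was 0.18 against -0.0025 for all genes tested, and the median of its absolute size was 0.21 against 0.19. The 3 WT values did not overlap the 3 Srrm2+/- values for 8 of the 10 genes, and for 41.4% of all genes tested. The regulators had mean levels of 6.46 to 368 CPM, and within that range 33.5% of 9087 genes were called and 49.9% did not overlap. With 10 genes, these shares describe the set and do not set it apart from other genes. The shares over all genes tested also stand beside the calls counted in the further lists below.

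**Figure D1:**
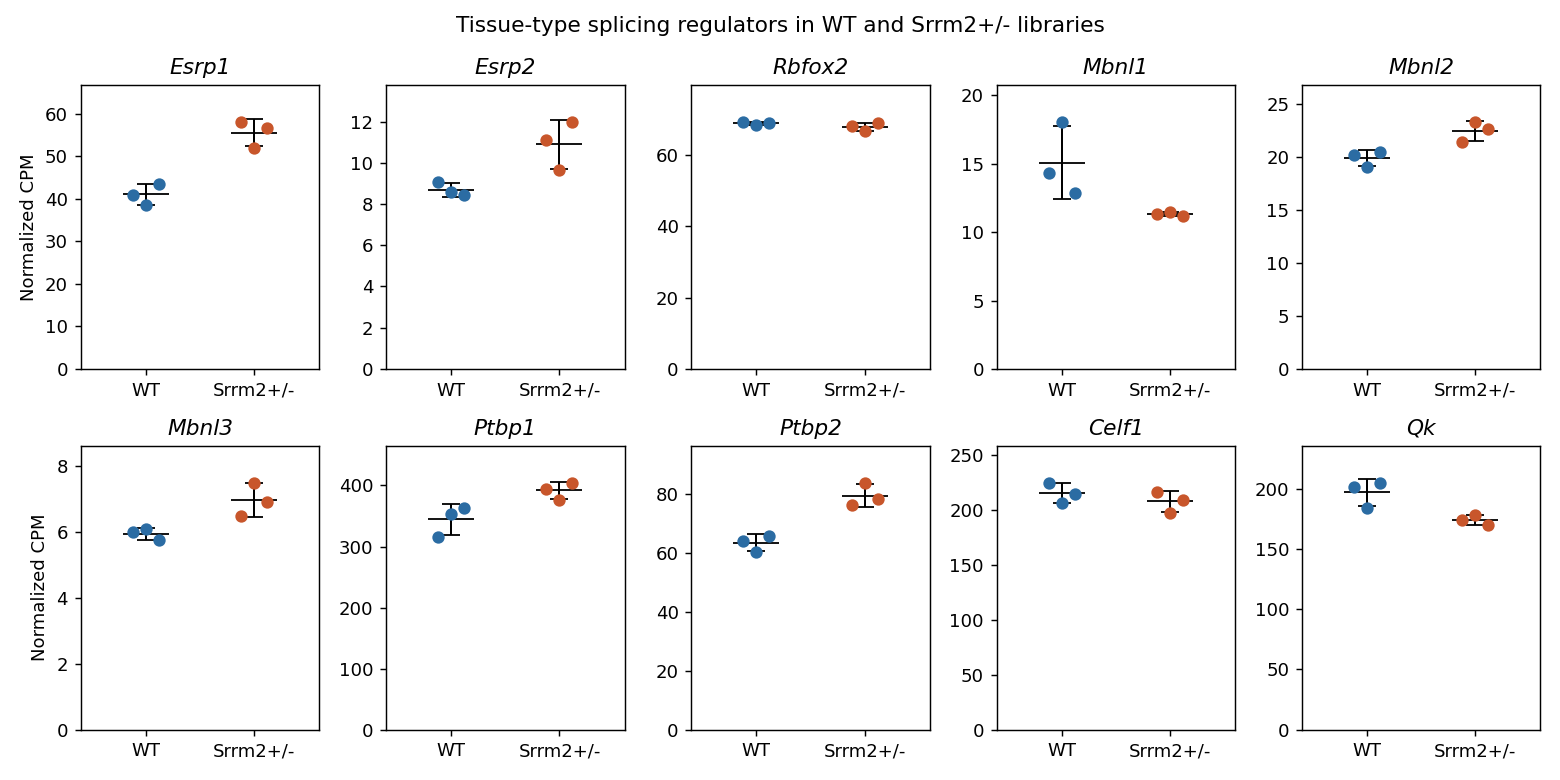
Normalized CPM (y axes, each from 0) of the 10 splicing regulators in the 3 WT (blue) and 3 Srrm2+/- (orange) libraries, with the mean and SD of each group (n = 3). Esrp1 and Ptbp2 are clearly separated between the groups, Mbnl1 has 1 high WT value of 18.1 CPM, and the Rbfox2 and Celf1 values overlap.

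Both epithelial splicing regulators rose. Esrp1 (ENSMUSG00000040728, chr4:11331933-11386783, minus strand, GRCm38) measured 40.9, 38.6 and 43.6 CPM in WT and 58.0, 51.9 and 56.7 in Srrm2+/-. Every Srrm2+/- library was above every WT library. The mean went from 41.0 ± 2.48 to 55.5 ± 3.19 CPM (SD, n = 3), a 1.35-fold rise with a 95% interval of 1.23 to 1.49 (log2 fold change 0.44, SE 0.060, edgeR adjusted p = 0.000871), and the call held under all 13 alternatives tried. Esrp2 (ENSMUSG00000084128, chr8:106130319-106136974, minus strand) was the scarcer paralogue, at 9.08, 8.60 and 8.42 CPM in WT and 11.1, 9.63 and 11.98 in Srrm2+/-. The groups did not overlap here either, but Srrm2+/- replicate 2 stood only slightly above the highest WT library. The rise was 1.25-fold (95% interval 1.08 to 1.45, log2 fold change 0.32, SE 0.093, edgeR adjusted p = 0.0326). This call was lost without WT replicate 2 or 3 (log2 fold change 0.32 and 0.30) and without Srrm2+/- replicate 1 or 3 (0.31 and 0.25), with edgeR adjusted p between 0.0819 and 0.119.

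Esrp1 supplied most of the ESRP transcripts in both groups. On a scale of CPM per kb of the longest annotated transcript, it made up 81.2% ± 1.2 of the ESRP sum for WT and 82.4% ± 1.0 for Srrm2+/- (SD, n = 3), while the sum itself went from 13.1 ± 0.618 to 17.5 ± 1.12 CPM per kb (two-sided exact permutation test, p = 0.1, the smallest that 3 against 3 libraries allow). The Esrp2 to Esrp1 count ratio was 0.222, 0.223 and 0.193 in WT and 0.191, 0.185 and 0.211 in Srrm2+/-. These values overlap, and their log2 difference of -0.12 gave an exact permutation p of 0.2. Esrp2 shares 219 exonic bases with Nfatc3 on the opposite strand, and the strand setting of the authors' counting was not given in the sources used here. Nfatc3 measured 37.9 CPM in WT and 34.9 in Srrm2+/- and was not called.

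Epithelial genes moved in the same direction as Esrp1 and Esrp2. All 7 tested epithelial markers rose, where 13.6% of all genes tested were called higher. Their summed level was 346 to 375 CPM in WT and 696 to 733 in Srrm2+/-, a rise carried mostly by Krt8 and Krt18. The simple-epithelial keratins changed most, Krt8 from 8.73 to 126 CPM (log2 fold change 3.85, SE 0.077, edgeR adjusted p = 5.77e-08) and Krt18 from 9.21 to 127 (3.79, SE 0.079, edgeR adjusted p = 5.77e-08). The tight junction genes Cldn6 and Cldn7 rose with log2 fold changes of 1.38 and 1.16. Epcam, the remaining marker, was listed at 0 counts in 5 of the 6 libraries and at 19 in Srrm2+/- replicate 3, and was not tested. It is known to be abundant in mESC, and why it was listed at 0 was not settled, so these counts are not read as absence of the transcript. In bulk RNA, a change in the number of cells of a type and a change in RNA per cell cannot be told apart, and the part of these markers in the ESRP result was not tested.

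The transcriptional repressors known to act on epithelial genes, ESRP genes among them, did not move together. Zeb1 fell from 24.0 ± 2.27 to 14.6 ± 1.23 CPM (log2 fold change -0.72, SE 0.085, edgeR adjusted p = 0.000385). Zeb2 rose from 4.77 ± 0.284 to 7.59 ± 1.504 CPM (0.67, SE 0.14, edgeR adjusted p = 0.00876), and Twist1 rose from 1.61 ± 0.170 to 3.52 ± 0.227 CPM (1.12, SE 0.14, edgeR adjusted p = 0.000536). Snai1 and Snai2 stayed under 0.4 CPM on average in both groups and did not pass the test. Of the 4 mesenchymal markers tested, Vim, Cdh2 and Col3a1 rose (log2 fold changes 0.38, 0.75 and 2.28) and Fn1 fell (-0.42), and their summed level was 394 to 451 CPM in WT and 370 to 395 in Srrm2+/-. S100a4, the remaining marker, was at 0 counts in WT and at 13, 7 and 4 in Srrm2+/-, and was not tested in the reported fit. When the low-count filter was loosened to 1 count, all 5 mesenchymal markers were called, 4 higher and 1 lower. The S100a4 counts are few, so the size of its rise was not read.

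**Figure D2:**
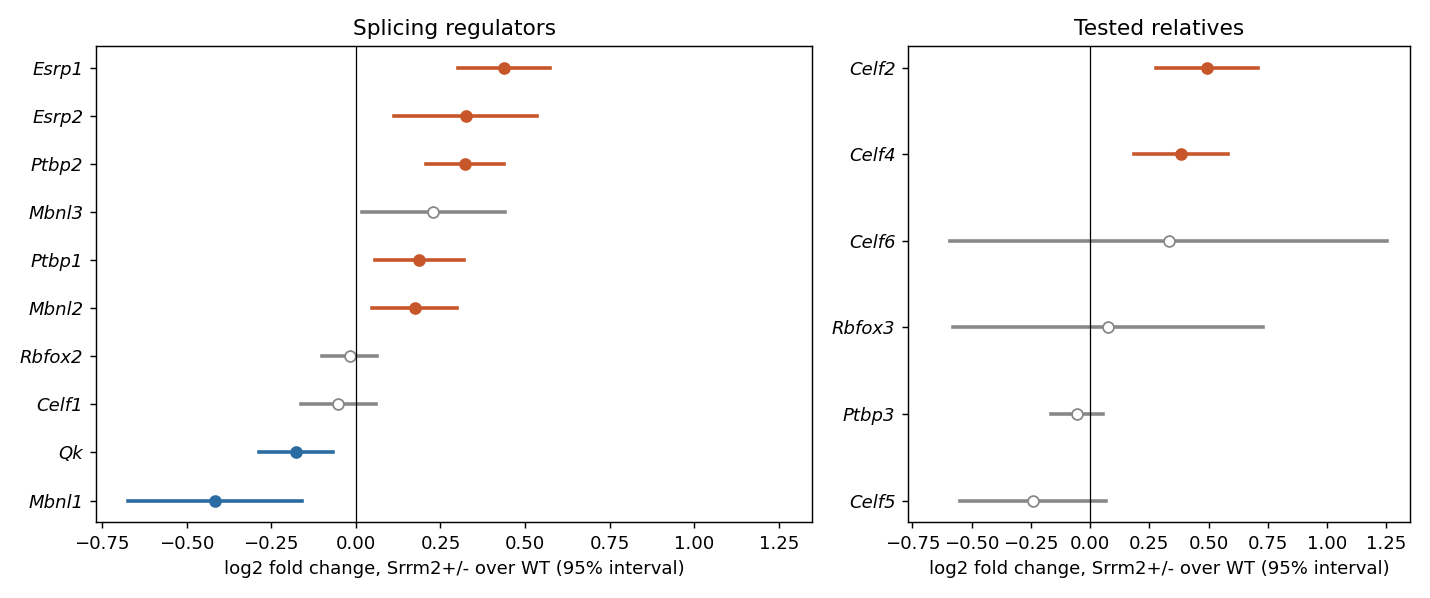
Log2 fold change of Srrm2+/- over WT with its 95% interval (edgeR) for the 10 regulators (left) and for 6 tested relatives of the same families (right), with filled symbols for calls at an adjusted p under 0.05. Esrp1 has the largest rise among the 10, at 0.44, and Mbnl1 the largest fall, at -0.42.

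The polypyrimidine tract-binding genes Ptbp1 and Ptbp2 also rose. Ptbp1 (ENSMUSG00000006498, chr10:79854427-79864771, plus strand) was the most abundant of the 10, at 316, 354 and 364 CPM in WT and 395, 377 and 404 in Srrm2+/-. The groups did not overlap, but Srrm2+/- replicate 2 was close to WT replicate 3. The rise was 1.14-fold (95% interval 1.04 to 1.25, log2 fold change 0.19, SE 0.058, edgeR adjusted p = 0.0434). It did not hold without WT replicate 1 or 2 (log2 fold change 0.13 and 0.21) or without Srrm2+/- replicate 1, 2 or 3 (0.18, 0.22 and 0.17), with edgeR adjusted p between 0.056 and 0.132. Of the 31-base words in Ptbp1 transcripts, 27.5% also occur in other genes, the pseudogene Gm4900 first among them with 11.1%, and kallisto apportions reads from such words among the genes that hold them. With the genes that share these words summed into Ptbp1, a step chosen after seeing the data, the log2 fold change was 0.19 (edgeR adjusted p = 0.0426).

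Ptbp2 (ENSMUSG00000028134, chr3:119718742-119784466, minus strand), the paralogue that is abundant in neurons and whose transcripts PTBP1 is known to destabilise through exon skipping, measured 64.3, 60.6 and 66.0 CPM in WT. In Srrm2+/- it measured 76.3, 84.0 and 78.3 CPM, above WT in every library. The mean went from 63.6 ± 2.78 to 79.5 ± 3.97 CPM, a 1.25-fold rise (95% interval 1.16 to 1.35, log2 fold change 0.32, SE 0.050, edgeR adjusted p = 0.0018) that held under all 13 alternatives. Ptbp3, the third family member, had means of 185 and 178 CPM and did not pass the test (log2 fold change -0.06, SE 0.048, edgeR adjusted p = 0.451).

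Ptbp1 remained the main PTBP transcript in both groups. Per kb of the longest transcript it made up 71.7% ± 2.1 of the family sum in WT and 73.1% ± 1.6 in Srrm2+/-, with Ptbp2 at 10.4% ± 0.62 and 11.6% ± 0.72 and Ptbp3 at 17.9% ± 1.5 and 15.3% ± 0.91. The family sum was 151 ± 7.34 and 169 ± 2.55 CPM per kb (exact permutation p = 0.1). The Ptbp2 to Ptbp1 count ratio, 0.204, 0.171 and 0.182 in WT and 0.193, 0.223 and 0.194 in Srrm2+/-, overlapped between the groups (log2 difference 0.13, exact permutation p = 0.3). A larger rise of Ptbp2 than of Ptbp1 was not resolved with 3 libraries per group. Neural markers were split beside these changes. Nes rose from 13.2 to 83.6 CPM (log2 fold change 2.67) and Neurod1 from 5.97 to 8.002 (0.42), Tubb3 fell from 48.8 to 28.7 (-0.76) and Pax6 from 27.2 to 22.1 (-0.30), while Sox1 and Map2 did not pass the test and Dcx was under 0.2 CPM in every library. Their summed level was 113 to 114 CPM in WT and 155 to 163 in Srrm2+/-, a rise carried by Nes. The part of the neural markers in the PTBP result was not tested.

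The muscleblind-like genes Mbnl1 and Mbnl2 moved in opposite directions. Mbnl1 (ENSMUSG00000027763, chr3:60472830-60629750, plus strand) fell, Mbnl2 (ENSMUSG00000022139, chr14:120275669-120431697, plus strand) rose, and Mbnl3 (ENSMUSG00000036109, chrX:51117269-51206532, minus strand) had a higher mean in Srrm2+/- without passing the test. The sequence before an annotated start of each gene is shown as a description (RefSeq transcripts, GRCm38.p6, 250 bases, strand of the gene). The windows are chr3:60472580-60472829 for Mbnl1, chr14:120275419-120275668 for Mbnl2 and chrX:51205991-51206240 for Mbnl3. A link between these sequences and the changes in level was not tested. Capitals mark matches on either strand to the CCAAT box, to the TATA motif TATAAA and to the GC box GGGCGG.
Mbnl1: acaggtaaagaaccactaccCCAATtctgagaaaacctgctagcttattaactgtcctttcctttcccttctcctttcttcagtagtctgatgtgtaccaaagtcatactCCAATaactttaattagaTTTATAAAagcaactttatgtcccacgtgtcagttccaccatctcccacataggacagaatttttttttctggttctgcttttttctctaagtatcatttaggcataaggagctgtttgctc
Mbnl2: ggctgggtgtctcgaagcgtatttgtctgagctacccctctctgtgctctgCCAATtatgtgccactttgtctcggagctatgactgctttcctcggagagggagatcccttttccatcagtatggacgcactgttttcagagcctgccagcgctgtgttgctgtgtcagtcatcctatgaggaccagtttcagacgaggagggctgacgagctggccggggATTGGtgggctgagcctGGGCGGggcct
Mbnl3: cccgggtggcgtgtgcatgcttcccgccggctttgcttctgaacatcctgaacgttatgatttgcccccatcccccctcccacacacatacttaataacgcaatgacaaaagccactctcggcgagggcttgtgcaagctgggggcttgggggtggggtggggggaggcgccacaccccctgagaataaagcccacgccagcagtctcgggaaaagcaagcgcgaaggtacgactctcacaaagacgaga
The Mbnl1 window has 38% GC and 1 CpG, with 2 CCAAT matches and an overlapping pair of TATAAA matches. The Mbnl2 window has 57.2% GC and 10 CpG, with 2 CCAAT matches and 1 GC box, and the Mbnl3 window has 59.2% GC and 15 CpG and holds none of these letters. Among 32851 windows of the same length, 33.8% held CCAAT, 12.4% TATAAA and 32.7% a GC box, and the medians were 52.4% GC and 6 CpG. A second Mbnl1 window at chr3:60500929-60501178 overlaps annotated exons and has 73.6% GC and 33 CpG. It holds 4 GC box matches and no CCAAT or TATAAA match, so the motifs found for Mbnl1 depend on the window taken. The gene-level counts do not say which start was used.

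Mbnl1 measured 14.3, 18.1 and 12.9 CPM in WT and 11.3, 11.5 and 11.2 in Srrm2+/-. The Srrm2+/- values were tightly grouped below all WT values, and WT replicate 2 was the highest library. The mean went from 15.1 ± 2.67 to 11.3 ± 0.129 CPM, or 75.0% of WT (log2 fold change -0.42, SE 0.11, 95% interval -0.67 to -0.16, edgeR adjusted p = 0.0259). Without WT replicate 2 the log2 fold change was -0.26 (edgeR adjusted p = 0.0473). The call was lost without Srrm2+/- replicate 1, 2 or 3 (log2 fold change -0.41, -0.42 and -0.41), with edgeR adjusted p of 0.0709, 0.0681 and 0.0804.

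Mbnl2 measured 20.1, 19.0 and 20.5 CPM in WT and 21.4, 23.3 and 22.6 in Srrm2+/-, without overlap. The 1.13-fold rise (95% interval 1.03 to 1.23, log2 fold change 0.17, SE 0.055) passed the test narrowly (edgeR adjusted p = 0.0483). The call was kept in 1 of 13 alternatives, that without Srrm2+/- replicate 1 (log2 fold change 0.21), and was lost without WT replicate 1, 2 or 3 (0.18, 0.15 and 0.20) and without Srrm2+/- replicate 2 or 3 (0.15 and 0.17), with edgeR adjusted p up to 0.154. Mbnl3, an X-linked gene and the scarcest of the 10, measured 6.001, 6.09 and 5.75 CPM in WT and 6.49, 7.50 and 6.92 in Srrm2+/-. The groups did not overlap, but the difference (log2 fold change 0.23, SE 0.093, 95% interval 0.02 to 0.44) had an edgeR adjusted p of 0.111.

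The balance within the MBNL family leaned less on Mbnl1 in Srrm2+/-. The Mbnl1 mean was lower and those of Mbnl2 and Mbnl3 higher, so the log2 ratios necessarily differ more than the single genes. The Mbnl2 to Mbnl1 count ratio was 1.41, 1.05 and 1.59 in WT and 1.90, 2.03 and 2.02 in Srrm2+/-. The Mbnl3 to Mbnl1 ratio was 0.418, 0.337 and 0.447 in WT and 0.575, 0.654 and 0.618 in Srrm2+/-. Neither ratio overlapped between the groups, and they were 1.49 and 1.54 times as high in Srrm2+/- (log2 differences 0.57 and 0.63, exact permutation p = 0.1 for each, the smallest the design allows). Ratios between genes of 1 library do not depend on the library scaling, and the 4 family ratios computed are all given here. Per kb of the longest transcript, Mbnl1 made up 34%, 40.3% and 31.6% of the MBNL sum in WT and 27.6%, 25.9% and 26.3% in Srrm2+/-. Mbnl2 went from 47.7% ± 4.1 to 53.5% ± 0.39 and Mbnl3 from 17.0% ± 0.43 to 19.9% ± 0.68 (SD, n = 3). On this length scale the MBNL sum was nearly the same in both groups, 7.52 ± 0.371 CPM per kb for WT and 7.53 ± 0.289 for Srrm2+/- (exact permutation p = 1). Family shares and sums depend on the length used. Per kb of the union of all exons, WT and Srrm2+/- means were 0.806 and 0.605 CPM for Mbnl1. They were 1.66 and 1.87 for Mbnl2, and 0.680 and 0.797 for Mbnl3.

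**Figure D3:**
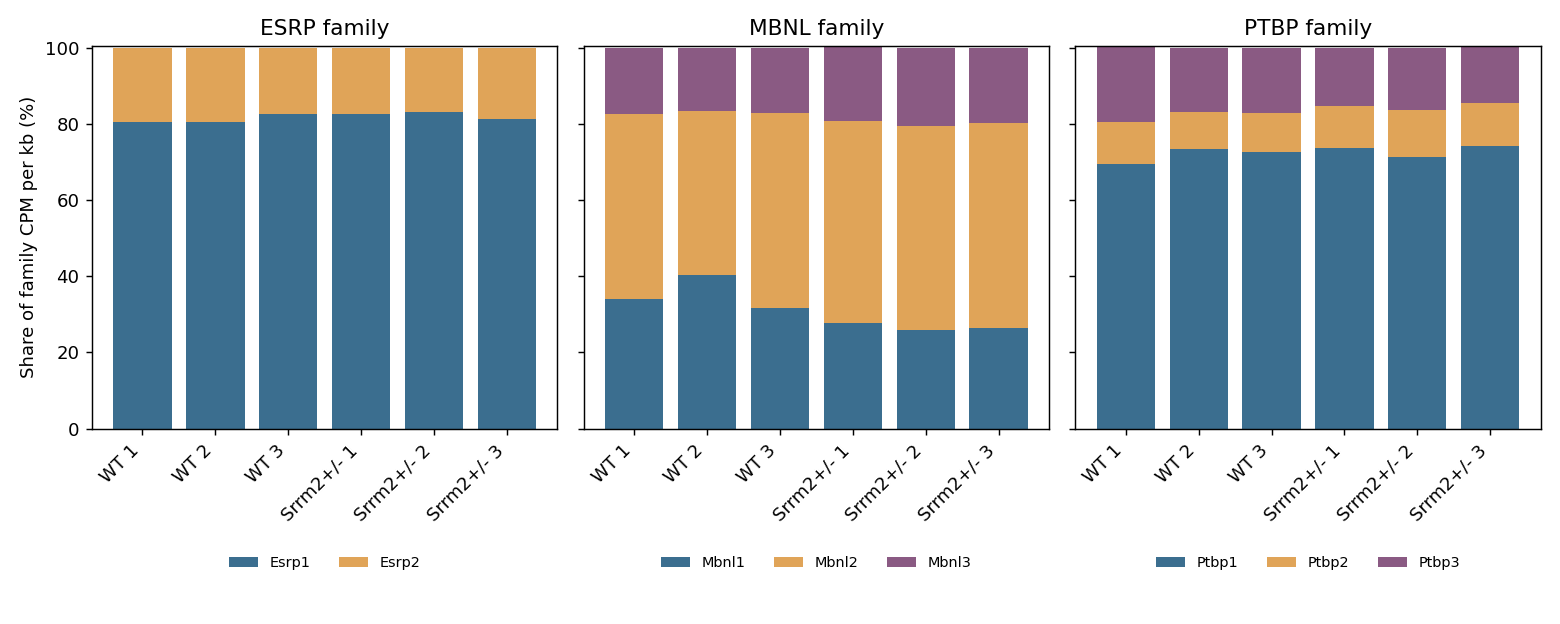
Share of each gene in its family's summed CPM per kb of longest transcript (y axis, percent) in each of the 6 libraries. Mbnl1 holds 31.6% to 40.3% of the MBNL sum in WT and 25.9% to 27.6% in Srrm2+/-, while the Esrp1 share overlaps between the groups.

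Celf1 and Rbfox2 had the smallest log2 fold changes of the 10. Celf1 (ENSMUSG00000005506, chr2:90940382-91019497, plus strand), which binds GU-rich RNA and opposes MBNL proteins on shared exons, measured 225, 207 and 215 CPM in WT and 217, 198 and 209 in Srrm2+/-. The values overlapped, and the log2 fold change of -0.05 (SE 0.049) had a 95% interval of -0.16 to 0.06 (edgeR adjusted p = 0.501). Rbfox2 (ENSMUSG00000033565, chr15:77078990-77307004, minus strand) measured 69.2, 68.3 and 68.8 CPM in WT and 68.1, 66.7 and 69.0 in Srrm2+/-. Its within-group SD of 0.018 on the log2 scale was the smallest of the 10, against a median of 0.13 for all genes tested, and its log2 fold change of -0.02 (SE 0.035) had an interval of -0.10 to 0.06 (edgeR adjusted p = 0.763). Changes of the size of the Esrp1 or Ptbp2 rise lie outside both intervals.

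Qk (ENSMUSG00000062078, chr17:10202601-10319854, minus strand) fell. It measured 202, 184 and 205 CPM in WT and 174, 179 and 170.0 in Srrm2+/-. The groups did not overlap, with WT replicate 2 nearest to the Srrm2+/- values. The mean went from 197 ± 11.1 to 174 ± 4.35 CPM, or 88.4% of WT (log2 fold change -0.18, SE 0.048, 95% interval -0.29 to -0.07, edgeR adjusted p = 0.0262). The call was lost without WT replicate 1 or 3 (log2 fold change -0.16 and -0.15) and without Srrm2+/- replicate 1, 2 or 3 (-0.18, -0.19 and -0.16), with edgeR adjusted p between 0.0502 and 0.0974. Muscle markers, set beside Qk and the MBNL genes, gave 1 call among 3 tested, Des (11.2 to 14.2 CPM, log2 fold change 0.34, edgeR adjusted p = 0.00995). Ttn measured 79.9 CPM in WT and 70.01 in Srrm2+/- without overlap, but did not pass (log2 fold change -0.19, SE 0.069, edgeR adjusted p = 0.0745), nor did Myh3. Myod1 was at 0 counts in all 6 libraries, and Myog and Myf5 stayed under 0.1 CPM. The summed muscle level was 88.3 to 96.5 CPM in WT and 78.1 to 90.3 in Srrm2+/-.

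Levels can be compared between genes per length. In WT, per kb of the longest transcript, the order was Ptbp1 (109 ± 8.0 CPM per kb), Celf1 (27.4 ± 1.2), Qk (23.1 ± 1.3), Ptbp2 (15.7 ± 0.69), Esrp1 (10.6 ± 0.64), Rbfox2 (9.96 ± 0.064), Mbnl2 (3.58 ± 0.14), Mbnl1 (2.67 ± 0.47), Esrp2 (2.46 ± 0.097) and Mbnl3 (1.28 ± 0.038). Esrp1 overlapped Rbfox2, and Mbnl1 overlapped Esrp2, so these neighbours did not differ beyond their spread. In Srrm2+/- the order had 1 exchange, with Esrp2 (3.08 ± 0.34) above Mbnl1 (2.00 ± 0.023) and no overlap between them. Esrp1 (14.4 ± 0.83) no longer overlapped Rbfox2 (9.83 ± 0.16), and Qk (20.4 ± 0.51) now overlapped Ptbp2 (19.7 ± 0.98). The order and these exchanges depend on the length used. With the union of all exons in place of the longest transcript, Esrp2 came 7th and above Mbnl1 in both groups (2.00 and 0.806 CPM per kb in WT). Rbfox2 then came 4th in WT and 6th in Srrm2+/-, Esrp1 6th and 4th, and Mbnl1 and Mbnl3 exchanged the 9th and 10th places.

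**Figure D4:**
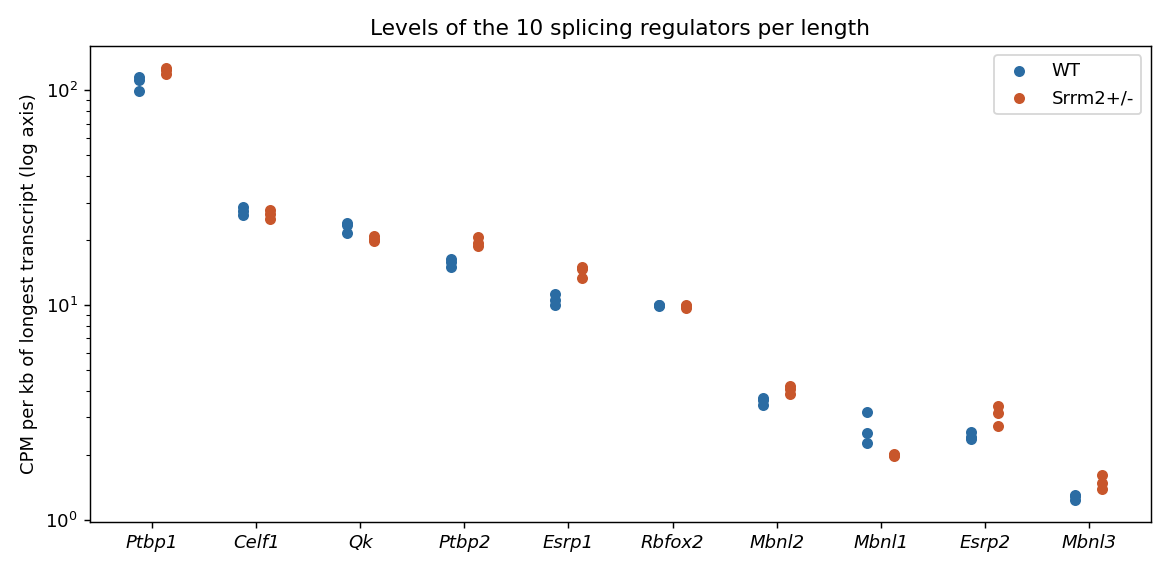
CPM per kb of longest transcript (y axis, log scale) of the 10 regulators in each WT (blue) and Srrm2+/- (orange) library, ordered by the WT mean. Ptbp1 is highest, at 109 CPM per kb in WT, and Mbnl3 lowest, at 1.28, while Esrp2 and Mbnl1 change places in Srrm2+/- on this length scale.

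Other members of these families were measured too. Of 8 relatives, 6 passed the filter and 2 of them rose, where 13.6% of all genes tested were called higher. Celf2, a CELF protein of brain, heart and lymphocytes, went from 6.86 ± 0.520 to 9.67 ± 0.735 CPM (log2 fold change 0.49, SE 0.094, edgeR adjusted p = 0.00508), and Celf4, a mainly neuronal one, from 8.65 ± 0.595 to 11.3 ± 0.854 CPM (0.38, SE 0.087, edgeR adjusted p = 0.0115). Both calls held under all 13 alternatives. Celf5, at 3.84 and 3.25 CPM, was not called (-0.24, edgeR adjusted p = 0.239), nor were Celf6 and Rbfox3, which stayed under 1 CPM. Rbfox1 had 0 counts in each WT library and 7, 3 and 4 in Srrm2+/-, and Celf3 had 0 counts in every library but 1. The median log2 fold change of the 6 tested relatives was 0.20.

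Among 16 other regulators with tissue-restricted roles, 15 were tested, of which 1 rose and 2 fell, with a median log2 fold change of 0.06. Of all genes tested, 13.6% were called higher and 11.7% lower. Rbm20, the regulator of titin splicing in heart, was scarce but rose from 1.08 ± 0.263 to 2.24 ± 0.377 CPM (1.04, SE 0.22, edgeR adjusted p = 0.00738). Elavl2, a neuronal ELAV-like protein, fell from 68.9 ± 3.17 to 51.4 ± 1.47 CPM (-0.42, SE 0.046, edgeR adjusted p = 0.000255). Nova1, a neuronal KH-domain regulator, measured 11.05, 6.52 and 13.2 CPM in WT and 5.09, 6.84 and 4.98 in Srrm2+/-. It was called lower (-0.86, SE 0.24, edgeR adjusted p = 0.0279) although WT replicate 2 lay within the Srrm2+/- range. That call was lost without WT replicate 1 or 3 (-0.80 and -0.64) and without Srrm2+/- replicate 1 or 3 (-0.79 and -0.78). The most abundant genes of this list that were not called were Msi2 (139 and 135 CPM, edgeR adjusted p = 0.512) and Khdrbs3 (29.4 and 32.1 CPM, edgeR adjusted p = 0.267).

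Genes for proteins that work with PTBP1 or RBFOX2 on RNA gave 1 call among 9, beside 25.3% of all genes tested. With 9 genes, this does not set the list apart from other genes. The called gene was Raver2, a PTBP1 partner, which rose from 21.6 ± 0.882 to 25.1 ± 1.02 CPM (log2 fold change 0.21, SE 0.055, edgeR adjusted p = 0.0206). The Raver2 call was lost without WT replicate 2 or 3 (0.21 and 0.19) and without Srrm2+/- replicate 1 or 3 (0.18 and 0.22). The abundant helicase Ddx5 was at 1254 and 1210.0 CPM (edgeR adjusted p = 0.521) and Hnrnph1 at 467 and 438 CPM (edgeR adjusted p = 0.347). The median log2 fold change of the 9 genes was 0.03.

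Genes in which these proteins are known to control an exon were examined at gene level only. Of 13, 6 rose, 1 fell and 6 did not pass the test, with a median log2 fold change of 0.23. Over all genes tested, 13.6% were called higher and 11.7% lower. The counts describe this list and were not tested against other genes. Tpm1, a tropomyosin gene with exons under PTBP1 control, rose from 82.0 ± 4.64 to 262 ± 8.78 CPM (1.68, SE 0.051, edgeR adjusted p = 1.7e-07). Cd44, whose variable exons respond to ESRP proteins, was near the limit of detection in WT, at 0.279 ± 0.145 CPM, and reached 1.12 ± 0.0851 CPM in Srrm2+/- (2.00, SE 0.36, edgeR adjusted p = 0.00384). Actn1 rose from 85.8 ± 3.51 to 118 ± 11.2 CPM (0.46, SE 0.067, edgeR adjusted p = 0.00117). Ctnnd1, the p120 catenin gene and an ESRP target, rose from 92.6 ± 2.68 to 111 ± 5.22 CPM (0.26, SE 0.045, edgeR adjusted p = 0.00311), with 58.6% of its 31-base words shared with other genes. Pkm and Src also rose and Enah fell, and the most abundant genes without a call were Scrib (67.5 and 68.2 CPM) and Foxp1 (40.5 and 38.3 CPM), the latter with a stem-cell exon that MBNL proteins are known to repress. A change in the summed count of such a gene says nothing about the use of its exon.

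Markers of other embryonic and stromal lineages were low or mixed. None of the 4 primitive endoderm markers tested was called by edgeR, DESeq2 or limma voom (1 of them had an unadjusted edgeR p under 0.05, lower), and their summed level was 1.92 to 2.15 CPM in WT and 1.57 to 1.99 in Srrm2+/-. Of 4 trophoblast markers tested, Tfap2c fell from 50.6 to 30.8 CPM (log2 fold change -0.71) and Eomes rose from 0.567 to 0.987 CPM (0.79). Cdx2 was at 0 counts in WT and at 5, 8 and 17 in Srrm2+/-, and was not tested. The summed level, most of it Tfap2c, was 52.0 to 52.9 CPM in WT and 32.2 to 35.3 in Srrm2+/-. The Eomes call was kept in 5 of 13 alternatives. Among others, it was lost without WT replicate 1 or 3 (0.67 and 0.76) and without Srrm2+/- replicate 1, 2 or 3 (0.82, 0.89 and 0.67). Of 4 fibroblast markers tested, Col1a1, Col1a2 and Postn rose (1.13, 3.89 and 2.83) from low levels. Thy1, the other, was at 1.93 and 1.19 CPM (log2 fold change -0.70, edgeR adjusted p = 0.0939), and was called lower without Srrm2+/- replicate 3. Dcn was at 0 counts in WT and at 4, 2 and 3 in Srrm2+/-, and Lum was under 0.1 CPM. The list had a summed level of 2.58 to 2.89 CPM in WT and 5 to 7.004 in Srrm2+/-.

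**Figure D5:**
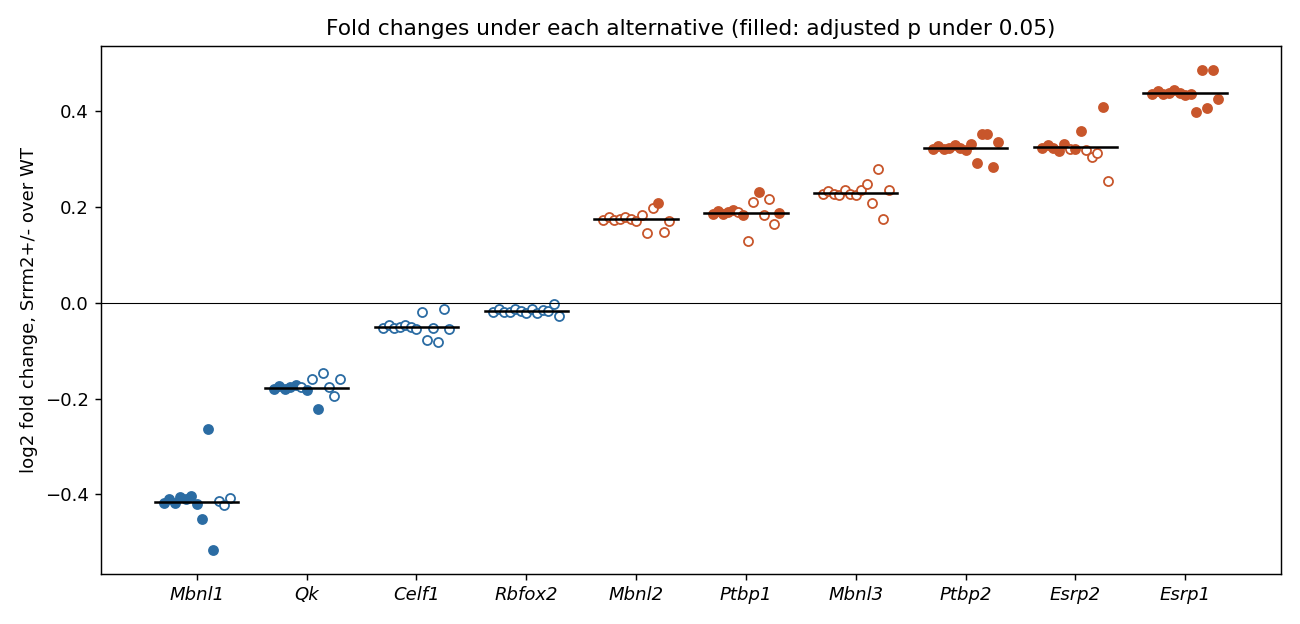
Log2 fold change of Srrm2+/- over WT (y axis) of the 10 regulators under each alternative (points, filled where the adjusted p is under 0.05), with the reported value as a bar. Esrp1 and Ptbp2 are filled throughout, Mbnl2 is filled once, and no regulator changes sign.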

How the data were processed

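Total RNA of WT and Srrm2+/- mESC (3 libraries each, grouped by sample title) was used. The authors pseudo-aligned paired reads with kallisto 0.46.1 to the GENCODE M24 transcriptome (mm10, GRCm38) and deposited a table of estimated counts with no normalization, which were rounded. Positions and symbols came from GENCODE M21 on the same build (42156 of 42450 identifiers matched).

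Genes past filterByExpr (minimum count 10, minimum total 15) were tested with edgeR 4.0.16 (TMM, glmQLFit and glmQLFTest, genotype alone, two-sided), and p-values were adjusted by Benjamini-Hochberg over all tested genes and called under 0.05. CPM used TMM-scaled library sizes, log2 CPM a prior count of 2. The SE was the size of the log2 fold change divided by the square root of F, and intervals were 95%. Family ratios and sums used exact permutation tests. P-values measure the spread between 3 frozen batches per line. Named genes were Srrm2, the 10 regulators and, per further list, at most the 4 largest changes called and the 2 most abundant genes not called, with exceptions named for their low counts, for a word overlap or in a count of 5 or fewer. The regulators and lists were chosen with earlier results of these data known. Alternatives were RLE and upper quartile scaling, DESeq2 1.42.0, limma 3.58.1 voom, a filter of at least 1 count, the replicate number as a block, leaving out mitochondrial genes, rRNA and short RNA, each library left out, and a log2 limit of 1. The script was tested on simulated data with planted changes larger than those of the called regulators, so changes of their size were not covered.

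Promoter windows were RefSeq's, with the 50 bases after the start removed, and were found for Mbnl1, Mbnl2, Mbnl3, Ptbp1, Ptbp2, Celf1 and Qk. The study's single cells, knockdown and exon-level data were not used here. A gene first planned for the neural list is not reported here and is not counted in that list.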

Additional observations from a re-analysis of the deposited data

How the results depend on the processing

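The 10 regulators and Srrm2 kept their direction under each of the 13 alternatives (14 for Ptbp1). Esrp1 (log2 fold change 0.40 to 0.49), Ptbp2 (0.28 to 0.35) and Srrm2 (-0.72 to -0.65) also kept their call, and Rbfox2, Celf1 and Mbnl3 stayed uncalled. The number of regulators called was 7 in the reported edgeR fit. It was 6, without Mbnl2, under RLE or upper quartile scaling, DESeq2, limma voom and the filter of at least 1 count. It was also 6 with short RNA, rRNA and mitochondrial genes left out. It was 2 to 4 with 1 library left out and 3 with the replicate number as a block. At a log2 fold change of at least 1, a limit that 1153 genes passed, it was 0. The block cost Esrp2 (0.32, edgeR adjusted p = 0.051), Mbnl2 (0.17, 0.0948), Ptbp1 (0.19, 0.0514), Qk (-0.18, 0.0564), Nova1 (-0.82, 0.0764) and Eomes (0.80, 0.0809) their calls. The labels give both groups replicates 1 to 3. Same-numbered libraries did not deviate together when taken over all genes (correlations of their deviations -0.028, -0.034 and -0.030). Such a correlation cannot settle whether single genes share a batch. Over all genes, calls went from 4781 to 4166 under the block and to 3515 to 4122 with 1 library left out, where fewer samples enter the fit. Calls among cofactors went from 1 to between 0 and 2 with 1 library left out, and among trophoblast markers from 2 to 1 with DESeq2, 1 under the block and 1 to 2 with 1 library left out. Muscle markers gave 2 calls with DESeq2 and 2 under the block, the added call being lower. The cause of these shifts was not tested. With 1 library left out the family log2 ratios ranged from -0.19 to -0.079 (Esrp2 to Esrp1), 0.065 to 0.20 (Ptbp2 to Ptbp1), 0.41 to 0.70 (Mbnl2 to Mbnl1) and 0.51 to 0.71 (Mbnl3 to Mbnl1). Scalings moved the median of all genes by less than 0.1 (log2).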
